A study of Mus musculus with 44 samples.

Results

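Striatal interneurons are a small minority of the neurons in a nucleus made mostly of GABAergic medium spiny projection neurons. They fall into cholinergic cells, which are tonically active and supply most of the acetylcholine of the striatum, and several classes of GABAergic cells, among them fast-spiking cells that hold parvalbumin and cells that hold somatostatin, neuropeptide Y and neuronal nitric oxide synthase. A transcript that marks such a class is therefore diluted in RNA of the whole striatum, and in bulk tissue fewer cells of a type and less RNA per cell cannot be told apart.

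The genes described are 10 markers of these cells. Chat, Slc18a3, Slc5a7 and Lhx8 mark the cholinergic class, and Pvalb, Sst, Npy, Nos1, Pthlh and Lhx6 the GABAergic classes. They were chosen by name, with every reporter annotated to them. On the Affymetrix arrays all 10 genes had values, on 14 of 38870 probesets, and on the Illumina arrays 8 genes had values, on 9 of 14185 probes. The normalized Illumina values hold no probe for Pthlh or Lhx6, so neither gene was tested on those arrays. The Pthlh probeset has no entry in the platform annotation used here, and its gene name comes from the gene assignment in the study's supplementary data.

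RNA was extracted from dissected striatum of naïve adult mice of the inbred strains C57BL/6J (B6) and DBA/2J (D2), with 1 array for each of 44 mice. The Affymetrix set held 20 mice, 5 females and 5 males of each strain. The Illumina set held 24 males, 12 of each strain. By the paper's methods some of these mice, from both strains, were also used for RNA-Seq and the rest formed an independent group. The sample labels do not show which arrays belong to which, so no term for it was fitted. No group was treated or carried an engineered allele. All strain differences are given as B6 minus D2, on the log2 scale of the Affymetrix RMA values or on the VST scale of the Illumina values. The VST scale nears log2 for bright probes but compresses dim ones, so no fold is given for it. Strains are compared within a reporter, and a reporter's mean serves only to choose among reporters of a gene or to mark those in the lower 50% of a table. P-values come from limma unless another test is named, were adjusted by Benjamini-Hochberg over the whole table, and were called at an adjusted p under 0.01. Since each array is a separate mouse, they set a difference against the spread between mice, with a precision limited by the number of arrays.

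Some arrays stood apart. The Affymetrix array B6 female 64 lay between the strains at 390 probesets that separated the others: its position was 0.51 between the mean of D2, set at 0, and the mean of B6, set at 1, and the other B6 arrays lay at 0.98 to 1.02. The Illumina arrays D2 3, 5, 6 and 12 were dim, with mean bead signals of 784, 985, 599 and 883 against 1223 to 1822 in B6. Where the dim arrays moved a strain difference of the interneuron genes, or their correlation with each other or with a marker list, the value is also given without them. The search for the genes most like each interneuron gene was not repeated without the dim arrays. For B6 female 64 the strain differences were recomputed without it, but the correlations were not.

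Among the interneuron genes, Pthlh alone passed the test for strain on the Affymetrix arrays, with a higher value in B6. None of the 8 genes tested on the Illumina arrays passed, and Pthlh was not among them. On the Affymetrix arrays 1 of 10 genes was called, where 10.3% of all 17243 genes were, 5.24% higher in B6 and 5.09% higher in D2. Counted over probesets, 1 of 14 was called, against 7.18% of all. On the Illumina arrays 0 of 8 genes were called by limma, where 10.5% of all 9807 genes were, 5.62% higher in B6 and 4.93% higher in D2 (8.64% of all probes). At an unadjusted p under 0.05 there were 2 of the 8, Chat and Slc5a7, where 35.2% of all Illumina genes were, and 2 of the 10 on the Affymetrix arrays, Pthlh and Nos1, where 30.5% were. The median difference of the members was -0.06 on the Affymetrix arrays, beside -0.03 over all genes, and -0.08 on the Illumina arrays, beside -0.02. The median absolute difference was 0.12 beside 0.08 over all genes on the Affymetrix arrays, and 0.14 beside 0.09 on the Illumina arrays. The share of interneuron genes called was near or below that of all genes.

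**Figure D1:**
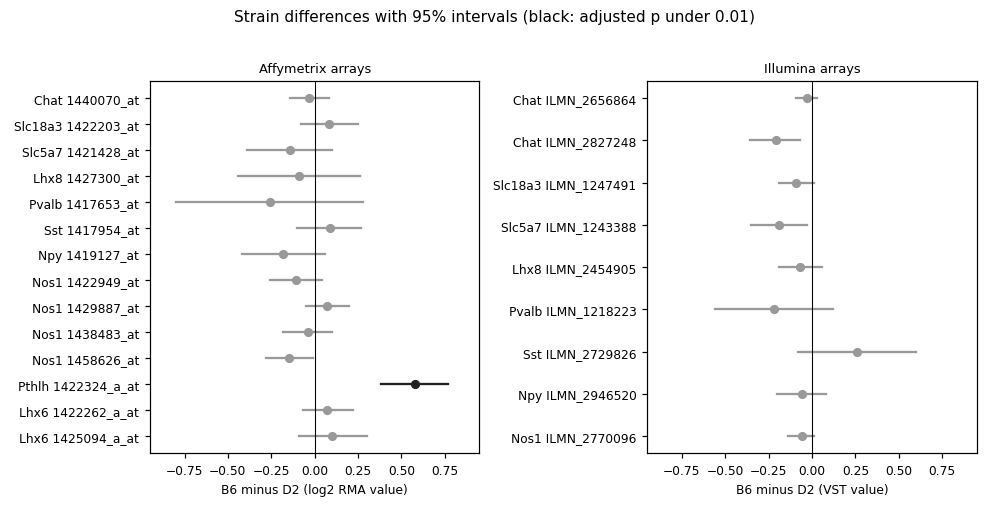
Strain differences of the interneuron genes, B6 minus D2, with their 95% confidence intervals from limma, for 14 Affymetrix probesets (left, log2 RMA value, 10 arrays per strain) and 9 Illumina probes (right, VST value, 12 arrays per strain). The Pthlh probeset, drawn in black, is the only reporter called, with a difference of 0.58 and an interval of 0.38 to 0.77.

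Pthlh encodes parathyroid hormone-related protein, a secreted peptide that is expressed by fast-spiking interneurons in the mouse striatum. Its probeset had log2 RMA values of 6.86 to 7.35 in 9 of 10 B6 arrays, with a median of 7.02 over all 10, and of 5.91 to 6.77, with a median of 6.48, in D2. The strains overlapped narrowly: 9 of 10 B6 arrays lay above the highest D2 value and 9 of 10 D2 arrays below the lowest B6 value, with B6 male 67 and D2 female 75 in the shared range. The B6 mean was 7.02 ± 0.20 (SD, n = 10) and the D2 mean 6.45 ± 0.24 (SD, n = 10), which gave a difference of 0.58 (SE 0.0924, adjusted p = 9.74e-05), or 1.49-fold with a 95% interval of 1.31 to 1.70. Without B6 female 64 the difference was 0.60, and leaving out any single array gave 0.52 to 0.61.

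The direction of the Pthlh difference was the same in each sex. B6 females averaged 7.02 and D2 females 6.55, and B6 males 7.03 and D2 males 6.34, so that the difference was 0.47 in females and 0.68 in males. The interaction of strain and sex was 0.21 (p = 0.261, adjusted p = 1), so a difference between the sexes was not shown. In males alone the gene missed the threshold, with an adjusted p of 0.0187. Markers of microglia also differed between these groups of arrays: 2 of 5 listed genes were called, both higher in B6, where 10.3% of all genes were called. The mean of the list was 9.31 to 9.66 in B6 and 8.95 to 9.21 in D2. Both called genes encode chains of complement C1q, C1qb (0.89) and C1qc (1.12), while C1qa, Csf1r and Cx3cr1 differed by 0.10, -0.05 and -0.06 and were not called. For oligodendrocytes 1 of 6 was called, Mobp (0.47), higher in B6, with list means of 11.40 to 12.10 and 10.80 to 11.87. Their part in the Pthlh difference was not tested.

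The other genes of the fast-spiking class gave no call. Pvalb encodes parvalbumin, a calcium buffer of fast-spiking cells. Its Affymetrix values ran from 8.98 through a median of 9.41 to 11.11 in B6 and from 9.26 through 9.93 to 10.86 in D2. The D2 range lay within the B6 range, but 5 of 10 B6 arrays lay below the lowest D2 value. The spread within a strain and sex, 0.67, was larger than that of 99.7% of probesets. The difference was -0.26 (95% interval -0.80 to 0.28, adjusted p = 0.628), and leaving out any single array gave -0.44 to -0.13. Its Illumina values ran from 11.78 through 12.79 to 13.50 in B6 and from 12.43 through 12.83 to 13.63 in D2, again overlapping, with a difference of -0.22 (interval -0.56 to 0.12, adjusted p = 0.380). It turned to 0.03 without the 4 dim D2 arrays. Lhx6, a homeobox transcription factor of interneurons that arise in the medial ganglionic eminence, had 2 probesets with differences of 0.10 (1425094_a_at, adjusted p = 0.569) and 0.07 (1422262_a_at, adjusted p = 0.597).

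**Figure D2:**
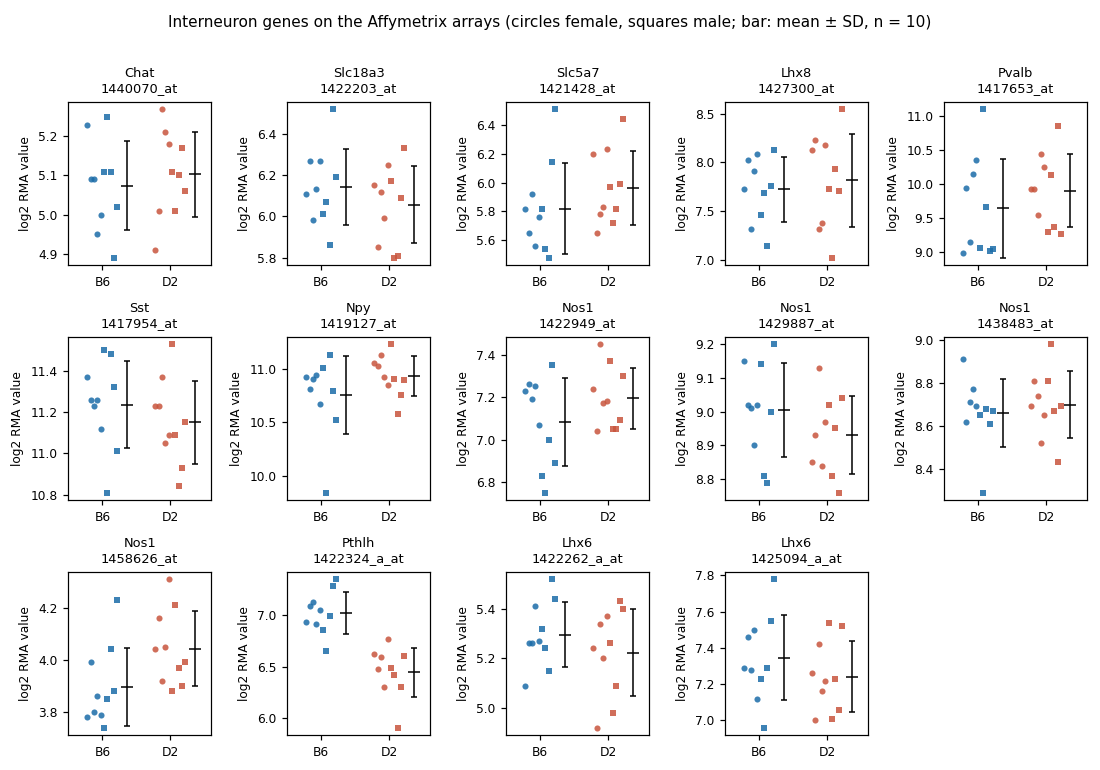
Log2 RMA value of each interneuron gene's probesets on every Affymetrix array, by strain (x axis; circles are females, squares males; the bar is the mean ± SD of 10 arrays). The Pthlh values overlap only through B6 male 67, which lies below the highest D2 value of 6.77, whereas the other panels overlap more. For Nos1 1458626_at and Pvalb, 6 and 5 of 10 B6 arrays lie below the lowest D2 value. B6 male 67 is the highest B6 array for Pvalb (11.11) and the lowest for Npy (9.84).

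The neuropeptide genes gave no call on either array. Sst encodes somatostatin, an inhibitory peptide. Its Affymetrix values were 10.81 to 11.50 in B6 (median 11.26) and 10.84 to 11.53 in D2 (median 11.12), nearly the same range, with a difference of 0.09 (interval -0.10 to 0.27, adjusted p = 0.638). Its Illumina values were 13.58 to 14.74 in B6 (median 14.49) and 12.87 to 14.53 in D2 (median 14.42). The 4 lowest Sst values were those of D2 5, D2 6, B6 2 and D2 12, at 12.87, 13.50, 13.58 and 13.86. The Illumina difference of 0.26 (interval -0.08 to 0.60, adjusted p = 0.295) became -0.02 without the 4 dim D2 arrays.

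Npy encodes neuropeptide Y, made in the striatum by the somatostatin cells and by neurogliaform cells. Its Affymetrix values were 9.84 to 11.13 in B6 (median 10.86) and 10.58 to 11.23 in D2 (median 10.91). The lowest value belonged to B6 male 67. The difference was -0.18 (interval -0.42 to 0.06, adjusted p = 0.402), and on the Illumina arrays it was -0.06 (interval -0.20 to 0.08, adjusted p = 0.583), or 0.01 without the 4 dim D2 arrays.

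Nos1 encodes neuronal nitric oxide synthase, which forms nitric oxide in the somatostatin cells. Its 4 probesets differed in sign. The differences were -0.11 (1422949_at), 0.07 (1429887_at), -0.04 (1438483_at) and -0.15 (1458626_at), and the lowest of the 4 adjusted p was 0.183, for the last. The single Illumina probe was detected on 5 of 12 B6 and 6 of 12 D2 arrays and differed by -0.06 (interval -0.14 to 0.01, adjusted p = 0.275), or by -0.02 without the 4 dim D2 arrays. At this detection a strain difference was hard to measure.

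The cholinergic genes did not pass the test either. Chat encodes choline acetyltransferase, which makes acetylcholine. Its brighter Illumina probe (ILMN_2827248) had VST values of 9.58 to 10.20 in B6 (median 9.88) and 9.89 to 10.45 in D2 (median 10.14). The strains overlapped, with 6 of 12 B6 arrays below the lowest D2 value and 3 of 12 D2 arrays above the highest B6 value. The difference of -0.21 (SE 0.0712, interval -0.36 to -0.07, adjusted p = 0.0436) lay past 0.05 but not past 0.01, and leaving out each array in turn gave -0.24 to -0.18 with adjusted p up to 0.0778. Without the 4 dim D2 arrays it was -0.18 (adjusted p = 0.123). The other Illumina probe of Chat, detected on 8 of 12 B6 and 7 of 12 D2 arrays, differed by -0.03 (adjusted p = 0.467). The Affymetrix probeset of Chat differed by -0.03, with a 95% interval of -0.14 to 0.08 (adjusted p = 0.812), and it lay in the lower 50% of the table by mean.

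Slc5a7 encodes the high-affinity choline transporter, which takes choline back into the terminal. Its Illumina values were 9.39 to 10.24 in B6 (median 9.74) and 9.67 to 10.32 in D2 (median 9.87). The overlap was broad, and the difference was -0.19 (interval -0.35 to -0.03, adjusted p = 0.105), or -0.16 without the 4 dim D2 arrays (adjusted p = 0.274), beside -0.14 on the Affymetrix arrays (interval -0.39 to 0.10, adjusted p = 0.533). Slc18a3, the vesicular acetylcholine transporter, which lies within an intron of Chat, differed by -0.09 on the Illumina arrays (adjusted p = 0.238, and -0.04 without the dim arrays) and by 0.08 on the Affymetrix arrays (adjusted p = 0.601). Lhx8, a homeobox transcription factor of forebrain cholinergic neurons, differed by -0.07 (adjusted p = 0.478, and -0.12 without the dim arrays) and -0.09 (adjusted p = 0.813). Its spread within a strain and sex on the Affymetrix arrays was 0.43, larger than that of 98.7% of probesets.

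**Figure D3:**
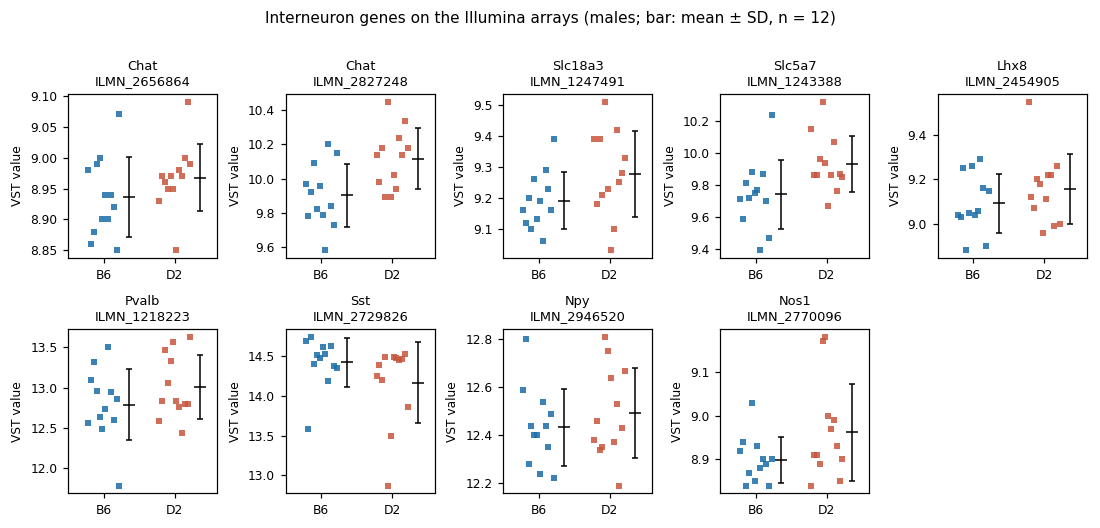
VST value of each interneuron gene's probes on every Illumina array, by strain (x axis; all mice were male; the bar is the mean ± SD of 12 arrays). The strains overlap in every panel, most narrowly for Chat ILMN_2827248 (B6 9.58 to 10.20, D2 9.89 to 10.45), and Sst shows a few low arrays, down to 12.87.

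No interneuron gene was called for sex on the Affymetrix arrays. For male against female, 0 of 14 probesets were called by limma (0.0412% of all probesets were), 0 had an unadjusted p under 0.05, and the lowest p was 0.0636, for Nos1 1422949_at with a difference of -0.14. Of all 38870 probesets, 1707 (4.39%) had an unadjusted p under 0.05. For strain by sex, 0 of 14 were called (0% of all), and 0 had an unadjusted p under 0.05. For this interaction 996 of all probesets (2.56%) had an unadjusted p under 0.05 and 0 were called.

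Genes of the same class were then compared across mice, to see whether they rose and fell together within a strain. For each gene the reporter with the highest mean was used, the mean of the strain and sex was subtracted, and the correlation was tested by 2-sided permutation within strain, with p adjusted over 17 pairs on both array types. The cholinergic transporters moved together on both. Slc18a3 and Slc5a7 had r = 0.65 over 20 Affymetrix arrays (permutation p = 0.00301, adjusted p = 0.00853, rho = 0.71, permutation p = 0.0009), and r = 0.78 over 24 Illumina arrays (permutation p = 1e-05, the smallest that the resamples can give, adjusted p = 8.5e-05, rho = 0.65, permutation p = 0.0011). Within B6 and D2, r was 0.47 and 0.87 on the Affymetrix arrays and 0.87 and 0.78 on the Illumina arrays. Without the 2 arrays farthest from the median of Slc18a3, r was 0.61 and 0.70, and it was 0.80 on the Illumina arrays without the 4 dim D2 arrays. In log2 bead signals centred on each array's median, the Illumina r was 0.61. The Affymetrix probesets of Slc18a3 and Slc5a7 lie, like that of Chat, in the lower 50% of the table by mean.

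Chat joined them on the Illumina arrays but not on the Affymetrix arrays. On the former, Chat and Slc18a3 had r = 0.66 (permutation p = 0.00047, adjusted p = 0.002, rho = 0.65, permutation p = 0.00096, 0.54 without the 2 farthest arrays and 0.59 without the 4 dim D2 arrays). Chat and Slc5a7 had r = 0.63 (permutation p = 0.00121, adjusted p = 0.00411), with rho = 0.46 (permutation p = 0.0267, adjusted p = 0.0648), and r was 0.44 without the 2 farthest and 0.61 without the dim arrays. In log2 bead signals centred on each array's median, r was 0.46 for Chat and Slc18a3 and 0.68 for Chat and Slc5a7. With the Affymetrix probeset of Chat, r was -0.22 and -0.28 (adjusted permutation p of 0.386 and 0.277). Chat and Lhx8 had r = 0.27 on the Illumina arrays and -0.35 on the Affymetrix arrays (adjusted permutation p of 0.248 and 0.194). Among all other genes, those most like Slc18a3 on the Illumina arrays were Isl1 (r = 0.82), Slc5a7 (0.78) and Qrfprl (0.78), and those most like Slc5a7 were Isl1 (0.83), Ecel1 (0.83) and Slc18a3 (0.78), by residual r over 24 arrays. Isl1 encodes a homeobox factor of striatal cholinergic neurons. Neither transporter was among the 3 genes most like the other on the Affymetrix arrays. There, Rhot2 (0.84), Nsg1 (0.82) and Ubxn6 (0.80) were most like Slc18a3, and Strn (0.86), Gm12992 (0.84) and Pde7b (0.82) most like Slc5a7. Most like Chat on the Illumina arrays were Lpl (0.77), Nsmaf (0.75) and Ivns1abp (0.75). The genes most like Lhx8 on the Affymetrix arrays were Baiap3 (0.92), Ecel1 (0.91) and Calcr (0.90).

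Sst and Npy had correlations of opposite sign on the array types. Over the Affymetrix arrays r was 0.92 (permutation p = 1e-05, the smallest that the resamples can give, adjusted p = 8.5e-05, rho = 0.91, permutation p = 1e-05), with 0.95 in B6, 0.98 in D2 and 0.93 without the 2 farthest arrays. Npy was among the 3 genes most like Sst there, with Cnih3 (0.93) and Rtn2 (0.92). Over the Illumina arrays r was -0.70 (permutation p = 0.00035, adjusted p = 0.00198), while rho was -0.46 (permutation p = 0.0253, adjusted p = 0.0648), and r was -0.48 without the 2 farthest arrays and -0.51 without the 4 dim D2 arrays. This sign depended on scaling. The Sst bead signal was 4510 to 38452 across arrays and that of Npy 2632 to 9220, and in log2 of these signals r was -0.10 after centring each array on its median and 0.73 without scaling, against -0.70 after quantile normalization. The genes most like Sst on the Illumina arrays were Sdhd (0.95), Ndufb2 (0.95) and Lars (0.93), the first 2 of which encode subunits of mitochondrial respiratory complexes. These values of r were not recomputed without the 4 dim D2 arrays, of which D2 5, D2 6 and D2 12 were low for Sst (12.87, 13.50 and 13.86). The difference between the array types was not tested, as they measured different mice.

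Nos1 did not follow the peptides on the Affymetrix arrays, with r = 0.31 against Sst and 0.23 against Npy (adjusted permutation p of 0.248 and 0.386). Among the Illumina arrays, where its probe was detected on fewer than 7 arrays of each strain, r was -0.62 against Sst and 0.54 against Npy (adjusted permutation p = 0.0177 for each), with rho of -0.29 and 0.41 (adjusted permutation p of 0.272 and 0.104). Without the 4 dim D2 arrays r was -0.07 against Sst and 0.25 against Npy, and the latter was 0.14 in B6. Pvalb and Lhx6 had r = -0.62 on the Affymetrix arrays (permutation p = 0.0052, adjusted p = 0.0126, rho = -0.55, permutation p = 0.0118), and -0.37 without B6 male 67 and D2 male 79. Pvalb and Pthlh had r = -0.39 (adjusted permutation p = 0.155) and Sst and Lhx6 0.36 (adjusted permutation p = 0.194).

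**Figure D4:**
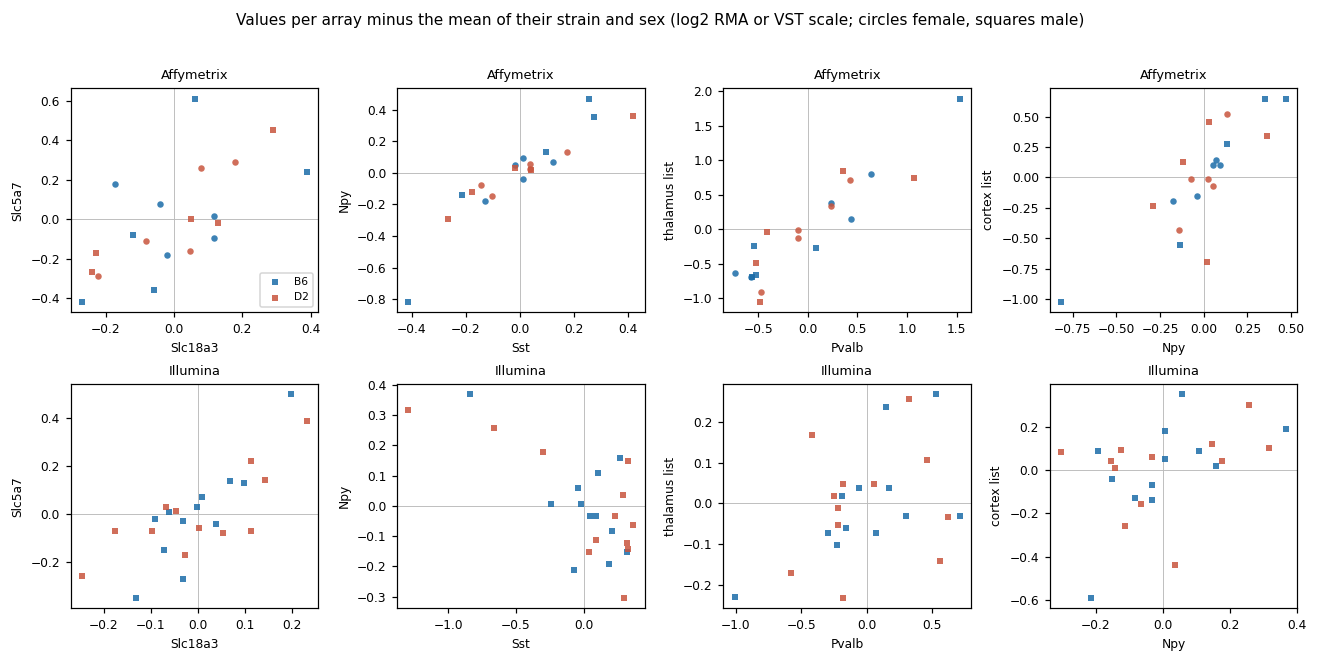
Each array's value minus the mean of its strain and sex, for Slc18a3 against Slc5a7, Sst against Npy, Pvalb against the mean of the thalamus list, and Npy against the mean of the cortex list (left to right; upper row 20 Affymetrix arrays in log2 RMA, lower row 24 Illumina arrays in VST units; circles are females, squares males). Slc18a3 and Slc5a7 rise together in both rows (r = 0.65 and 0.78), whereas Sst and Npy rise together in the upper row (0.92) and oppose each other in the lower (-0.70).

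Interneuron genes were also set against lists of markers of medium spiny neurons, cortex and thalamus, the first of which marks the striatum itself. The 12 relations, between 4 genes and these 3 lists on both array types, were chosen after the values were seen. Permutation p was adjusted over these 12 only, not over the relations that were passed over. These p-values therefore describe the chosen relations and are not a test of them. Pvalb is also abundant outside the striatum, in cortex, globus pallidus and thalamic reticular nucleus. Its residuals on the Affymetrix arrays had r = 0.92 with the mean of the 5 thalamic and other subcortical glutamatergic markers (permutation p = 1e-05, the smallest that the resamples can give, adjusted p = 0.00012, rho = 0.85, permutation p = 1e-05), and 0.87 without B6 male 67 and D2 male 79. In B6 male 67, where Pvalb was 11.11, this list stood at 10.28, the highest of the 20 arrays, and the cortex list at 7.73, the lowest. In the other arrays the thalamic list ran from 7.55 to 9.54. For the Illumina arrays the same relation had r = 0.42 (permutation p = 0.0485, adjusted p = 0.0582, rho = 0.36, permutation p = 0.0915), and 0.52 without the 4 dim D2 arrays. With the mean of the medium spiny neuron markers, Pvalb had r = -0.71 over the Affymetrix and -0.65 over the Illumina arrays (adjusted permutation p of 0.00184 and 0.00163, rho of -0.58 and -0.56), and -0.35 and -0.53 without the 2 farthest arrays, so that the Affymetrix relation rested largely on B6 male 67 and D2 male 79. Without the 4 dim D2 arrays the Illumina value was -0.71.

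Npy and Sst followed cortical markers on the Affymetrix arrays. With the mean of the 8 cortex genes, Npy had r = 0.82 (adjusted permutation p = 0.00018, rho = 0.83) and Sst r = 0.74 (adjusted permutation p = 0.00104, rho = 0.68), and 0.67 and 0.62 without the 2 farthest arrays. Over the Illumina arrays r was 0.42 for Npy and -0.30 for Sst (adjusted permutation p of 0.0582 and 0.137, rho of 0.47 and -0.32), and 0.33 and -0.14 without the 4 dim D2 arrays. Slc5a7 followed the medium spiny markers on both array types, with r = 0.76 and 0.62 (adjusted permutation p of 0.00108 and 0.00353, rho of 0.68 and 0.55). Without the 2 farthest arrays r was 0.53 and 0.45, and the Illumina value was 0.71 without the 4 dim D2 arrays. With the cortex list Slc5a7 had r = -0.36 over the Affymetrix and -0.63 over the Illumina arrays (adjusted permutation p of 0.137 and 0.00408, rho of -0.32 and -0.52). Without the 2 farthest arrays these were -0.01 and -0.60, and the Illumina value was -0.82 without the dim arrays. None of these 3 lists held a gene called for strain by limma on either array, where 10.3% and 10.5% of all genes were. Drd2 of the medium spiny list came near on the Illumina arrays (0.40, adjusted p = 0.0102). Median strain differences on the Affymetrix and Illumina arrays were 0.22 and 0.13 for the medium spiny list and -0.18 and -0.13 for the cortex list. For the thalamic list they were -0.23 and 0.03. At an unadjusted p under 0.05 there were, on the Affymetrix and Illumina arrays, 5 of 8 and 2 of 7 medium spiny genes, 1 of 8 and 2 of 7 cortex genes, and 1 of 5 and 1 of 4 thalamic genes, where 30.5% and 35.2% of all genes were. The part of tissue content in the interneuron values was not tested.

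Genes that receive the signals of these cells were read from a list of 13 receptors, enzymes and partners. On the Affymetrix arrays 1 of 13 was higher in B6, Gucy1a1, and 1 higher in D2, Sstr1, and on the Illumina arrays 1 of 7 was higher in B6, again Gucy1a1. Sstr1 encodes a somatostatin receptor. Its values were 4.36 to 6.05 in B6 and 6.26 to 7.79 in D2, with no overlap. The highest B6 value, 6.05, was that of B6 female 64. The means were 4.92 ± 0.46 and 6.81 ± 0.46 (SD, n = 10 each), a difference of -1.89 (SE 0.18, adjusted p = 6.47e-08), or -2.01 without B6 female 64. The B6 mean lay below the median value of every array, and no detection calls were used, so the B6 level may not be above background and the size of the difference is uncertain. The peptide itself did not pass the test, as given above, and the other listed somatostatin receptors Sstr2, Sstr3 and Sstr4 differed by -0.25, -0.12 and 0.14 (adjusted p of 0.283, 0.219 and 0.276).

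Gucy1a1 encodes a subunit of soluble guanylyl cyclase, the receptor of nitric oxide. Its probeset 1420534_at was 8.74 to 9.45 in B6 (median 9.04) and 8.33 to 8.80 in D2 (median 8.57), overlapping narrowly, a difference of 0.46 (SE 0.0813, adjusted p = 0.000297). The Illumina probe ILMN_1241211 was 9.86 to 10.45 in B6 (median 10.18) and 9.62 to 9.94 in D2 (median 9.78), again overlapping, a difference of 0.39 (SE 0.0504, adjusted p = 1.78e-06). The reporters of the gene were uneven: 1420533_at differed by 0.38 (adjusted p = 0.000578), but 1434141_at by 0.12 (adjusted p = 0.538), and the other Illumina probes by 0.19 and 0.07 (adjusted p of 0.0805 and 0.717). Gucy1b1, the partner subunit, had an Affymetrix difference of -0.12 and an Illumina difference of 0.27 (adjusted p of 0.303 and 0.183).

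Other genes of interneurons were read from a list of 32. On the Affymetrix arrays 1 of 28 tested was called, Th, higher in B6, and on the Illumina arrays 1 of 23 was higher in B6, Slc32a1, and 1 higher in D2, Crhbp. The shares called over all genes were 10.3% and 10.5%. Th, tyrosine hydroxylase, marks a sparse class of striatal GABAergic interneurons and also dopaminergic axons, whose cell bodies lie outside the striatum. It was 6.73 ± 0.19 in B6 and 6.46 ± 0.11 in D2 (SD, n = 10 each), a difference of 0.27 (adjusted p = 0.00983) that missed the threshold on leaving out any of 14 arrays (adjusted p up to 0.0219). Its Illumina probe, detected on 9 of 12 B6 and 6 of 12 D2 arrays, differed by 0.01 (adjusted p = 0.792). Crhbp encodes the corticotropin-releasing hormone binding protein, found in somatostatin cells of the cortex. Its Illumina probe was 10.59 to 11.41 in B6 (median 11.07) and 11.14 to 12.11 in D2 (median 11.78), with an overlap, a difference of -0.63 (SE 0.0971, adjusted p = 3.03e-05), or -0.53 without the 4 dim D2 arrays. Its Affymetrix probeset was 5.47 to 7.94 in B6 and 6.96 to 8.29 in D2, a difference of -0.40 (adjusted p = 0.401).

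Slc32a1 encodes the vesicular GABA transporter of all GABAergic neurons, the medium spiny cells included. Its Illumina probe was 14.44 to 15.12 in B6 (median 14.68) and 12.89 to 14.37 in D2 (median 13.95), with no overlap, a difference of 0.85 (SE 0.131, adjusted p = 2.92e-05), or 0.66 without the 4 dim D2 arrays. The 3 Affymetrix probesets differed by 0.09, 0.06 and -0.16 (adjusted p of 0.498, 0.641 and 0.143). Illumina probes that span a SNP between the strains were not removed here, whereas such Affymetrix probes had been masked. The part of sequence differences in these values was not tested. Microglial and oligodendrocyte markers also differed between the Illumina groups: 3 of 5 and 5 of 6 listed genes were called, all higher in B6, where 10.5% of all genes were called. The list means were 9.99 to 10.16 against 9.63 to 9.90 and 12.08 to 12.51 against 11.56 to 12.01. The part of these markers in the differences of Gucy1a1, Crhbp and Slc32a1 was not tested. The 3 microglial genes called were again C1q chains, C1qa (0.23), C1qb (0.77) and C1qc (0.58), while Cx3cr1 and Aif1 differed by 0.10 and -0.14 (adjusted p of 0.465 and 0.197).

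**Figure D5:**
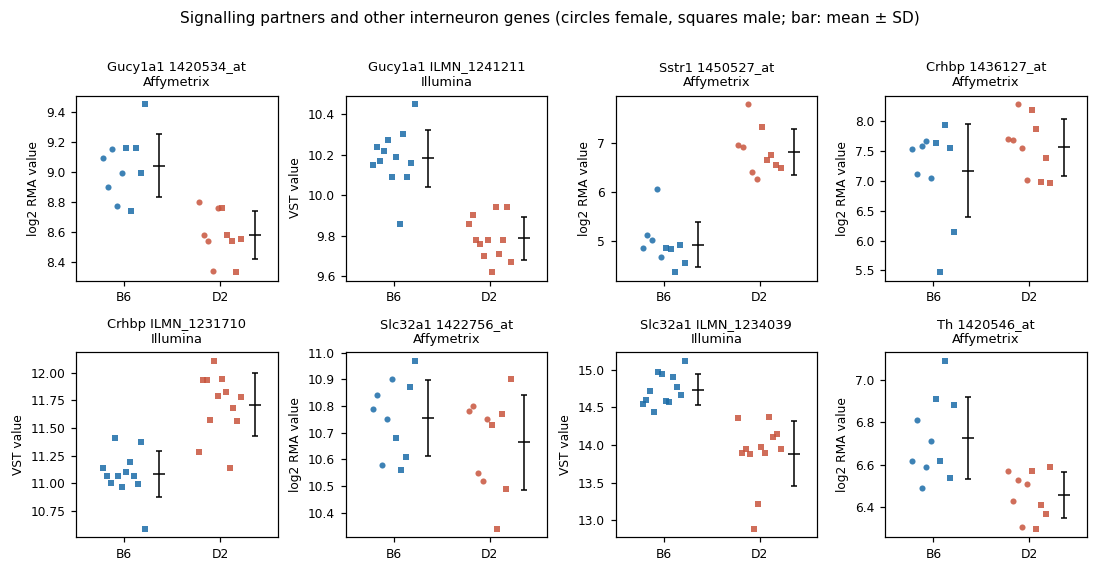
Values on every array, by strain (x axis; log2 RMA for Affymetrix, VST for Illumina; circles are females, squares males; the bar is the mean ± SD of 10 or 12 arrays), of Gucy1a1, Sstr1, Crhbp, Slc32a1 and Th. Sstr1 (B6 up to 6.05, D2 from 6.26) and the Illumina probe of Slc32a1 (B6 from 14.44, D2 up to 14.37) show no overlap between strains, while the Affymetrix probeset of Slc32a1 overlaps.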

How the data were processed

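Interneuron genes were compared between B6 and D2 striatum on 20 Affymetrix and 24 Illumina arrays. The Affymetrix values were deposited as log2 RMA values, which the authors made from perfect-match probes after leaving out those over a SNP or with more than a single alignment. The submitters' processing notes name MAS5 5.0, whose detection calls were not used here. The Illumina values are the authors' VST values, for which the methods name robust spline normalization, although the sorted values of all arrays were equal within 0.00192, as quantile normalization gives. The deposited table holds probes with a detection p-value under 0.05 on at least 7 of 24 arrays, of 25697 on the array. Bead signal intensities and detection p-values, deposited by the authors from GenomeStudio, served for alternatives and detection counts.

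In R 4.3.3, limma 3.58.1 with statmod 1.5.0 (lmFit, then eBayes) was run on whole tables without a filter on low values, sex being a term of the Affymetrix model, and checked on simulated data. A gene was represented by its reporter with the lowest adjusted p in counts of called genes, and by that with the highest mean in list means, pairs and likeness. Correlations were tested with 100000 permutations within strain (Python 3.11.15, scipy 1.17.1), and where arrays were left out the group means were taken over the arrays kept. Reporters with 1 gene symbol numbered 29979 of 38870 (Affymetrix) and 13347 of 14185 (Illumina). Every reporter of the 10 genes is given. For other lists, up to 4 called genes per list, and for likeness the 3 genes with the highest r, are named, and further reporters and family members of a called gene were named after their values were seen. Not every like gene is printed. The members, lists and tests were chosen with earlier results of these data known. Alternatives covered filters, scaling, covariates, single sexes, array weights, the replicate number as a block, the threshold, the choice of reporter, and leaving out arrays.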

Additional observations from a re-analysis of the deposited data

Results flagged for a closer look

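In groups of 5 mice of a strain and sex, 2 of 92 sets of Affymetrix values held an array far from the other 4, where chance gives about 1 in 20, or 4.6. For Nos1 probeset 1438483_at, B6 male 67 had a value of 8.29 against 8.61 to 8.68 in the other B6 males. Without this array the strain difference of the probeset was 0.000824 in place of -0.04. For Gucy1a1 probeset 1434141_at, D2 male 79 had a value of 10.11 against 10.64 to 10.84 in the other D2 males.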

How the results depend on the processing

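The Affymetrix count of 1 interneuron gene held under all alternatives but males only, where it was 0 (Pthlh 0.68, adjusted p = 0.0187). Over all probesets the count was 4357 at an adjusted p under 0.05, 978 in females only and 1221 in males only, and 2534 to 2990 on leaving out each array. The count of probesets called for sex was 5 among the upper 50% by mean, in place of 16. On the Illumina arrays an adjusted p under 0.05 gave 1 interneuron gene (Chat) and 2092 probes. Signs turned for values that were not called: Nos1 1438483_at was 0.058 in females only and -0.0669 to 0.000824 on leaving out each array (highest without B6 male 67), Lhx8 1427300_at was -0.179 to 0.00118 (highest without D2 male 80), and on the Illumina arrays Npy was 0.0508 with log2 signals centred on the median and 0.0131 without the 4 dim D2 arrays, which also turned Pvalb (0.0268) and Sst (-0.0179). The Affymetrix probesets Gucy1a1 1420534_at and Th 1420546_at missed the threshold in females only and in males only. For Chat and Slc18a3 on the Affymetrix arrays r was 0.14 without the 2 farthest arrays and 0.19 in D2, and for Sst and Lhx6 it was -0.17 without the 2 farthest. On unscaled log2 Illumina signals, an alternative chosen after the values were seen, r was 0.73 for Sst and Npy and 0.33 for Sst and Nos1, and centring on the median gave -0.14 for Npy and Nos1. The cause of these changes was not tested.

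With the replicate number as a block on the Illumina arrays, 0 interneuron genes and 893 probes were called. The labels do not say what the numbers mark, and no pairing of the mice by number was seen. Same-numbered arrays had residual correlations of -0.42 to 0.28, 3 of 12 over 0.1, and 0 arrays correlated best with their own number. Dim probes limit Nos1 and Lhx8 on the Illumina arrays. On the Affymetrix arrays Chat, Slc18a3, Slc5a7, Nos1 1458626_at and Lhx6 1422262_a_at lie in the lower 50% by mean.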
